A study of Rattus norvegicus with 2 samples.

Results

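A set of 10 genes for cystine and amino acid transporters was followed in IEC6, an untransformed cell line of rat small-intestinal epithelium, exposed for 60 min to water or to the polysulfide salt Na2S3 (sodium trisulfide). The 10 genes are Slc7a11, Slc3a2, Slc7a5, Slc7a6, Slc7a1, Slc1a4, Slc1a5, Slc38a1, Slc38a2 and Slc6a9, out of 27233 named genes with a probe on the array, and were found by the gene name that the scanner files give to their 14 non-control probes. Cells of both groups were grown on dishes and kept in DMEM with a low serum content during the exposure, and 1 single-colour Agilent array (Cy3) was hybridised per group with total RNA as the source. The Na2S3 dose is 100 µM in the sample label and in the design text, whereas the treatment protocol gives the same figure in mM. With 1 array per group there is no replicate and no test, so "higher" and "lower" describe these arrays, and no p-value is given. The labels do not say how many dishes were pooled, and fewer cells and less RNA per cell cannot be told apart in such bulk RNA.

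Cystine, the oxidised dimer of cysteine, enters most cultured cells through system xc-, which exchanges it for glutamate and is built from the light chain xCT (Slc7a11) and the heavy chain CD98 (Slc3a2). CD98 also carries other light chains to the plasma membrane, among them LAT1 (Slc7a5), which takes up leucine and other large neutral amino acids. The genes of several of these carriers are known targets of ATF4, a transcription factor that responds to amino acid shortage, and Slc7a11 is also a target of NRF2, the regulator of antioxidant genes.

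The values below come from the following probes, shown because each ratio rests on 1 or 2 of them and the 2 probes of a gene did not always give the same ratio. Each line gives the first 30 bases of a 60-base probe, 5′ to 3′, in lower case with no part marked, after its rn4 position and strand as the files give them. Whether a probe lies in a coding exon or in a UTR was not analysed here. The probes shown are those of the 5 genes past 2-fold, with both probes of Slc7a11 and of Slc7a1.
Slc7a11, brighter probe, chr2:139241468-139241527, minus strand: agggtgaagtaggttctgtagttaatgact
Slc7a11, dimmer probe, chr2:139248397-139248456, minus strand: ataaccagaacattacagattatactagaa
Slc3a2, chr1:211376528-211376587, minus strand: attcatgctgtggaatgagtctagcaactc
Slc1a4, chr14:101123891-101123950, minus strand: gactagaacactctgacctttgtcttgatc
Slc7a5, chr19:52121389-52121448, minus strand: tgttccggggagacggttgagtccagcagc
Slc7a1, brighter probe, chr12:7253393-7253451, plus strand: gtcacagagggtcatgatactaatgagggc
Slc7a1, dimmer probe, chr12:7247219-7247791, plus strand: ggtaccctttgtccccgtacttcctgtctt

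On the Na2S3 array, 5 of the 10 genes stood at least 2-fold above the water array and 0 stood 2-fold below it. Slc7a11, Slc1a4, Slc3a2, Slc7a5 and Slc7a1 made up the 5, and the other 5 genes had log2 ratios between 0.01 and 0.38. The median log2 ratio of the 10 genes was 0.71, against -0.04 over all 13061 measured genes. Among those 13061 genes, 0.942% passed 2-fold upward and 0.62% downward. At 1.5-fold the members counted the same 5 and 0, beside 2.96% of all genes upward and 3.41% downward. A gene counts as measured when a probe was well above background on both arrays, by the flag of the scanner software. Its log2 ratio is that of its brightest such probe, after the signal of each array was divided by that array's 75th percentile (413 units for water and 478 for Na2S3). All 10 genes were measured, and 13 of their 14 probes were. The genes were chosen with earlier results of these arrays known, so their count describes them and is no independent sign of a response of transporters.

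Each of the 14 probes was spotted 1 time per array, so its error was read from the spread of probes with repeat spots at similar signal. This spot error covers the array measurement and not the difference between cultures. It was 0.12 to 0.15 on the log2 scale for the bright probes (Slc3a2, Slc7a6, Slc1a5, Slc38a2 and the brighter ones of Slc7a1 and Slc6a9), and 0.29 to 0.41 for the dim ones (Slc7a11, Slc7a5, Slc1a4 and the dimmer ones of Slc7a1 and Slc38a1).

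**Figure D1:**
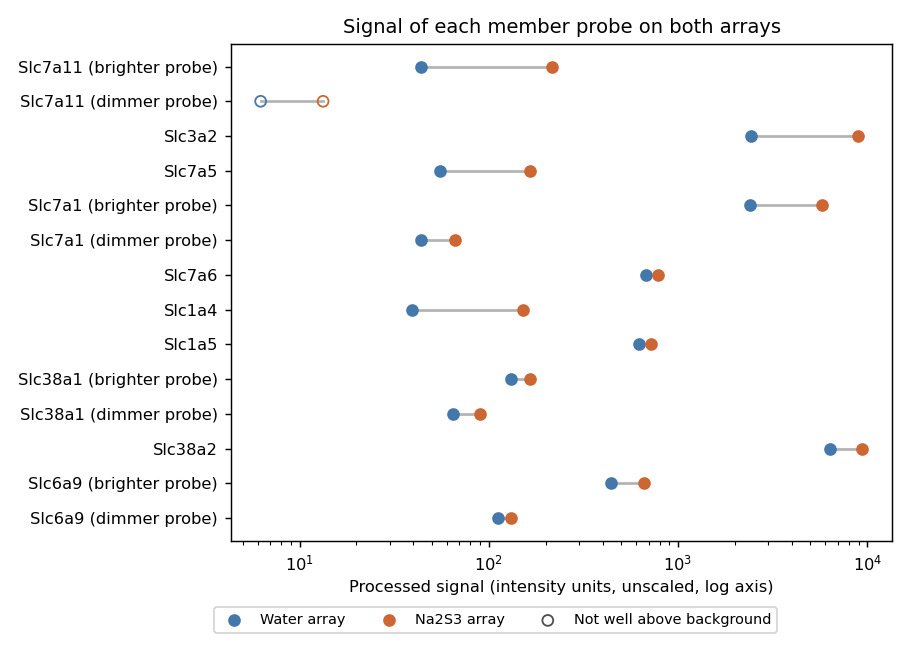
Processed signal of each of the 14 member probes on the water array (blue) and the Na2S3 array (orange), in intensity units on a log axis and before scaling between arrays, with open circles for the probe that was not well above background. The grey lines are longest for Slc7a11, Slc3a2, Slc7a5 and Slc1a4, and short for Slc7a6 and Slc1a5. Horizontal positions of different probes are not comparable levels, since each probe has its own brightness.

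The subunits of the cystine transporter were both higher after Na2S3. Slc7a11, the cystine-binding light chain, read 43.9 units on the water array and 216 on the Na2S3 array at its brighter probe. The scaled difference was 4.26-fold, a log2 ratio of 2.09 with a spot error of 0.36, and it ranked 24 among the ratios of all 13061 measured genes. The Na2S3 array was thus the high one by several spot errors, but the water signal was low. The raw means of the same spots were 125 and 297 units, over local backgrounds of 58 and 56. These raw means still include background and were not scaled between arrays, so their ratio of 2.38 differs from the 4.26-fold in both respects. Without scaling alone, the log2 ratio of the processed signals was 2.30. With normexp background correction, which adds 50 units to every spot, the Slc7a11 log2 ratio was 1.08, still at least 2-fold. The other Slc7a11 probe, whose start lies 6929 bases upstream on the gene's strand, read 6.23 and 13.3 units. Neither array's spot passed the background flag, so this probe gives no ratio.

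Slc3a2, the CD98 heavy chain shared by system xc- and several exchangers, read 2422 units on the water array and 8889 on the Na2S3 array. The scaled difference was 3.18-fold, a log2 ratio of 1.67 with a spot error of 0.13, and its rank was 38. It was the largest of the 10 ratios relative to its spot error (12.8 spot errors). The Slc3a2 spots stood far above the local backgrounds of 69 and 63 units, and the log2 ratio lay between 1.65 and 1.88 over the 11 alternative settings.

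The other light chains of CD98 did not share a common ratio. Slc7a5 (LAT1), the exchanger of large neutral amino acids, read 55.1 units on the water array and 165 on the Na2S3 array. It was 2.58-fold higher there, a log2 ratio of 1.37 with a spot error of 0.30, and ranked 60. With normexp the Slc7a5 log2 ratio was 0.76, below 2-fold. Slc7a6 (y+LAT2), which exchanges cationic for neutral amino acids, read 675 and 785 units, a log2 ratio of 0.01 with a spot error of 0.12. Its arrays thus differed by less than the spot error. Of the 6 light chain genes known to pair with CD98, the other 3 (Slc7a7, Slc7a8 and Slc7a10) passed the background flag on neither array, and 2 of the 3 measured ones were at least 2-fold higher.

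Slc7a1 (CAT1), the main carrier of arginine and lysine in many dividing cells, needs no heavy chain. Its brighter probe read 2403 units on the water array and 5728 on the Na2S3 array, 2.06-fold higher, a log2 ratio of 1.05 with a spot error of 0.15 and a rank of 111. Its dimmer probe read 43.7 and 66.2 units, a log2 ratio of 0.39 with a spot error of 0.41. The Slc7a1 probes differed by 0.65, where the spot error of that difference was 0.44. The 60 bases of the dimmer probe cover 573 bases of rn4, so they are split in that genome, while the start of the brighter probe lies 6174 bases further downstream. Slc7a1 was below 2-fold as the median over its probes (0.72) and with normexp (0.99).

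The 2 carriers of the ASC family gave different ratios. Slc1a4 (ASCT1), an exchanger of serine, alanine and cysteine, read 39.4 units on the water array and 151 on the Na2S3 array. It was 3.31-fold higher, a log2 ratio of 1.73 with a spot error of 0.39, and ranked 35. The raw means of its spots were 126 and 244 units, and its log2 ratio was 0.87 with normexp, so its call as 2-fold higher depends on the background. Slc1a5 (ASCT2), the glutamine exchanger of the same family, read 621 and 722 units, a log2 ratio of 0.01 with a spot error of 0.13. The gap between the log2 ratios of Slc1a4 and Slc1a5 has no replicate and was not tested.

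System A carriers, which move small neutral amino acids with sodium, differed by less than 1.5-fold between the arrays. Slc38a2 (SNAT2), which amino acid shortage is known to induce, read 6333 units on the water array and 9414 on the Na2S3 array. The Slc38a2 log2 ratio was 0.36, with a spot error of 0.13 and a rank of 917, so it exceeded its error. Slc38a1 (SNAT1), a glutamine carrier, read 132 and 165 units at its brighter probe and 64.8 and 89.7 at the other. The Slc38a1 log2 ratios were 0.12 with a spot error of 0.18 and 0.26 with one of 0.29, so neither probe differed by more than its error.

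Slc6a9 (GlyT1), the sodium-coupled glycine carrier, had probes that gave unequal ratios. The brighter Slc6a9 probe read 440.5 and 661 units, a log2 ratio of 0.38 with a spot error of 0.13. The dimmer one read 112 and 131 units, a log2 ratio of 0.01 with a spot error of 0.21. The Slc6a9 probes differed by 0.36, where the spot error of that difference was 0.25, and their starts lie 830 bases apart. In all 4 genes with 2 probes, Slc7a11, Slc7a1, Slc38a1 and Slc6a9, the brighter probe was the one nearer the 3′ end of the gene.

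**Figure D2:**
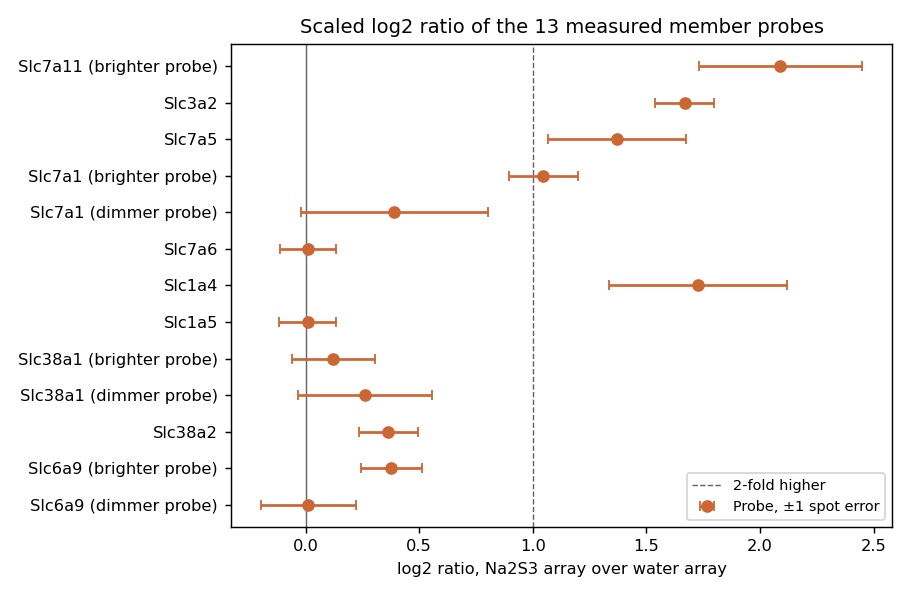
Log2 ratio of the Na2S3 array over the water array for the 13 measured member probes, each array scaled to its 75th percentile. Points are single probes, bars are 1 spot error either way from repeat spots at similar signal, the solid line is 0 and the dashed line is 2-fold higher. Slc7a11, Slc3a2, Slc7a5 and Slc1a4 lie right of the dashed line with their bars, the bar of the brighter Slc7a1 probe crosses it, and Slc7a6 and Slc1a5 lie at 0.01.

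Processing moved the dim genes most. Of the 5 genes, Slc3a2 and Slc7a11 were at least 2-fold higher in all 11 alternative settings, and Slc7a1, Slc1a4 and Slc7a5 in 9 of 11 each. These counts say little about how firm a call is, since several settings left the values as they were or raised them. No member probe was flagged as an outlier, dropping the dim filter changed no member, and every other scaling raised the ratios. Slc1a4 and Slc7a5 fell below 2-fold in both settings that add 50 units. With normexp 2 of the 10 genes passed 2-fold (Slc3a2 and Slc7a11), and with 50 units added to both arrays 3 did (with Slc7a1), where Slc7a11 stood at 1.31, Slc1a4 at 0.98 and Slc7a5 at 0.84. The log2 ratio of every member was positive in all 11 settings. For Slc7a6, Slc1a5 and Slc38a1 the reported ratio was smaller than its spot error, so their sign carries no information. Without scaling between arrays the median of all genes rose by 0.21, and the members' ratios rose with it.

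**Figure D3:**
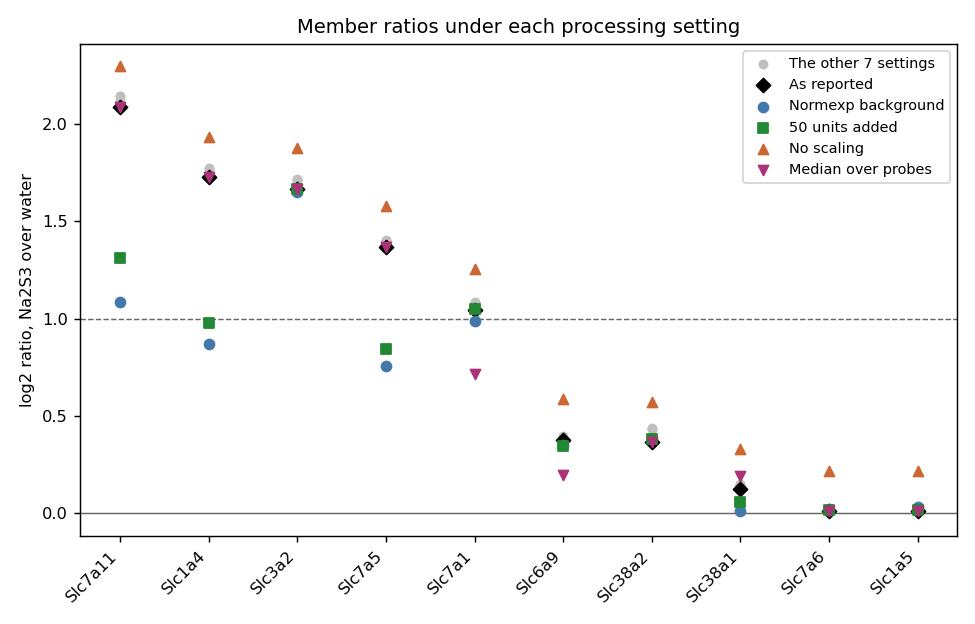
Log2 ratio of the 10 genes under the reported processing (black diamonds) and the 11 alternative settings, ordered by the reported ratio; the solid line is 0 and the dashed line is 2-fold higher. Slc3a2 keeps nearly the same value in every setting but the unscaled one, while Slc7a11, Slc1a4 and Slc7a5 fall with normexp and with 50 units added.

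The other amino acid transporter genes, a list of 61 across 3 compartments, had log2 ratios nearer to 0. Of them 27 were measured, 30 passed the background flag on neither array, 2 had no probe and 2 were well above background on 1 array alone. Of the 27 measured genes, 1 passed 2-fold upward and 1 downward (3.7% each, against 0.942% and 0.62% of all genes). Their median log2 ratio was -0.08. The list's median turned positive (0.13) without scaling between arrays.

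At the plasma membrane, 12 of 42 listed genes were measured, with a median log2 ratio of -0.09 against -0.04 over all measured genes. Slc7a4, a relative of the cationic carriers, was 2.10-fold lower (log2 ratio -1.07, spot error 0.56), from 45.3 units on the water array to 24.9. With normexp the Slc7a4 log2 ratio was -0.44, and no listed gene was 2-fold lower with normexp, no scaling, quantile normalization, the deposited value table or 50 units added. Slc6a18, a neutral amino acid carrier of kidney and gut, read 75.4 and 61.4 units, a log2 ratio of -0.50 with a spot error of 0.33. The second cystine route of epithelia, formed by the heavy chain rBAT (Slc3a1) and the light chain b0,+AT (Slc7a9), did not share the ratio of system xc-. Slc7a9 read 607 and 652 units (log2 ratio -0.10, spot error 0.13) and Slc3a1 46.6 and 43.8 units (-0.30, spot error 0.47). Slc7a3, another cationic carrier, read 15.6 and 26.9 units. It passed the background flag on the Na2S3 array only, where it was at least 1.27-fold higher. Slc38a8, at 29.9 and 6.55 units, passed it on the water array only, and was at least 1.68-fold higher there. Both bounds take the lowest signal of any probe well above background on the dim array where the dim probe lay under it. They carry no spot error, and Slc6a7, measured at 21.3 and 23.0 units, had one of 0.68.

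Among lysosomal carriers, 5 of 7 were measured. Ctns, the gene of cystinosin, which exports cystine from lysosomes, read 20.6 units on the water array and 49.7 on the Na2S3 array, 2.09-fold higher. Its log2 ratio of 1.06 had a spot error of 0.60 and was 0.22 with normexp, so its position past 2-fold rests on a signal close to background. Slc38a9, an arginine sensor of the lysosome, read 232 and 353 units, a log2 ratio of 0.40 with a spot error of 0.15. Mfsd12, which is needed for cysteine import into lysosomes, had a log2 ratio of -0.19.

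Mitochondrial carriers showed the narrowest range, from -0.24 to 0.24 over 10 measured genes of 12. Sfxn1, the serine carrier, stood at -0.24 and Slc25a38, the glycine carrier, at 0.24, with spot errors of 0.12 and 0.13. Slc25a39, needed for glutathione import, had -0.04. None of the 10 mitochondrial genes was 1.5-fold higher or lower in these arrays. Across all compartments, probes of 1 gene disagreed most for carriers of the plasma membrane. Slc36a4 ran from -1.42 to -0.05 over 3 probes, and Slc6a6 from -0.57 to 0.07 over 3.

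**Figure D4:**
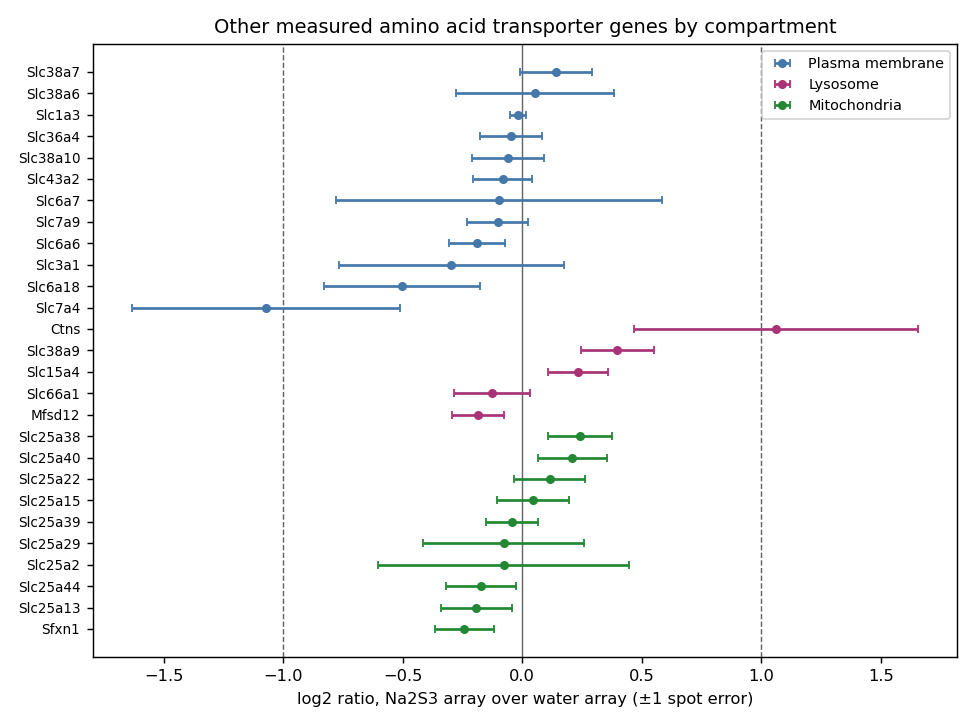
Log2 ratio of the Na2S3 array over the water array for the 27 measured genes among the 61 other amino acid transporters, by compartment, with bars of 1 spot error either way; the solid line is 0 and the dashed lines are 2-fold lower and higher. Ctns and Slc7a4 lie past the dashed lines with wide bars, and the mitochondrial genes lie between -0.24 and 0.24.

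The promoters of the 5 higher genes did not share a response motif in the windows searched. RefSeq windows on GRCr8, from 250 bases before to 50 after a start site, were found for 9 of the 10 genes (10 windows, 2 of them for Slc3a2), and not for Slc1a5. They were searched on both strands for TGATGNAA, the core of the composite site that ATF4 binds with C/EBP factors, and for TGACNNNGC, the core of the antioxidant response element that NRF2 binds. These patterns do not overlap in the member windows. TGATGNAA was found in 3 of the 9 member genes, Slc1a4, Slc7a1 and Slc38a1, beside 4.16% of all 27457 genes. By windows it was found in 3 of 10, beside 3.98% of all 33469. TGACNNNGC was found in 3 of the 9 member genes, Slc3a2, Slc7a1 and Slc38a2, beside 13.1% of all genes. By windows it was found in 3 of 10, beside 12.1% of all. The windows of Slc7a11, Slc7a5, Slc7a6 and Slc6a9 held neither run of letters. A match is a run of letters and no measured binding.

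The 250 bases before the start are printed for Slc1a4 and Slc7a1, which hold TGATGNAA and were at least 2-fold higher, for Slc38a1, which holds it and stood at 0.12, and for the Slc3a2 window with TGACNNNGC. Bases run 5′ to 3′ on the gene's strand, and capitals mark the matches on either strand. In Slc38a1 and Slc1a4 the match reads TGATGCAA, starting 142 bases before the start site and, on the opposite strand, 235 bases before it. In Slc7a1 it reads TGATGAAA, 30 bases before the start.
Slc1a4, GRCr8 chr14:98761563-98761812, minus strand: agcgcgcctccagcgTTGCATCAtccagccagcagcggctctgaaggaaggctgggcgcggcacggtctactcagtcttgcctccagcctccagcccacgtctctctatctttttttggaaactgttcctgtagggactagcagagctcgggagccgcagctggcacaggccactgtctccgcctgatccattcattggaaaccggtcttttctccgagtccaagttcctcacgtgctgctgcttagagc
Slc7a1, GRCr8 chr12:11664238-11664487, plus strand: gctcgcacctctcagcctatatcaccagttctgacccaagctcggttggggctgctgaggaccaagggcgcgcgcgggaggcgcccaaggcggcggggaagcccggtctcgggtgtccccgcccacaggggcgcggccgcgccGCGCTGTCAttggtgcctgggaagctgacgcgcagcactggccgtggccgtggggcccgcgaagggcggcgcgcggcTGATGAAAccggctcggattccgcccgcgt
Slc38a1, GRCr8 chr7:129681402-129681651, minus strand: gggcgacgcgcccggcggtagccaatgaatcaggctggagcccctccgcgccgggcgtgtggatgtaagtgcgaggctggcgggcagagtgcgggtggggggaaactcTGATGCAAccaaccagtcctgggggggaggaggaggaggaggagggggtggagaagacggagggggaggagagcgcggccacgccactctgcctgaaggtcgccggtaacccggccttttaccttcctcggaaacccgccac
Slc3a2, GRCr8 chr1:215039671-215039920, minus strand: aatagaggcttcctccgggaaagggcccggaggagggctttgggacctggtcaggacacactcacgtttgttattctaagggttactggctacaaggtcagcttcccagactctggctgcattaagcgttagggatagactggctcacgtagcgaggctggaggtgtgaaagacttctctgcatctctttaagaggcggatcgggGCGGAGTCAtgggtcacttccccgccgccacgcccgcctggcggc

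The background flag was passed by 49.5% of 45598 probes on the water array and by 49.0% on the Na2S3 array, and both arrays lay on 1 slide with 1 scan time. Of 18 intestinal epithelial markers, 6 were measured, namely Krt8, Krt18, Krt19, Cdh1, Cdx1 and Ascl2. Krt20, Epcam, Vil1, Cdx2, Lgr5, Olfm4, Alpi, Fabp2, Tff3 and Lyz2 read at most 16.2 units on each array and did not pass the flag. Muc2 and Sis had no probe. Of 11 fibroblast and mesenchymal markers, 8 were measured, among them Col1a1, Col3a1, Dcn and Vim, and of 10 immune and endothelial markers 5 were. The summed signal of each list, in units of the array's 75th percentile, was 80.5 and 78.0 for the epithelial, 812 and 739 for the fibroblast and 8.52 and 7.0 for the immune and endothelial genes on the water and Na2S3 arrays. The part of these lists in the members' ratios was not tested.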

How the data were processed

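Total RNA of IEC6 cells, 1 sample per group (water 60 min, Na2S3 60 min), was converted to Cy3-labelled cRNA, per the labels' protocols, for 1 Agilent array each. The scanner files hold linear intensity values, made by Agilent Feature Extraction 10.7.1.1 with spatial and multiplicative detrending, no global background correction and surrogate values for low signals, per the file headers (the version in the submitters' processing notes is 9.5.1.1). The deposited value table also holds linear intensity values, with a normalization not given in the sources used here.

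The members and lists were chosen with earlier results of these data known. Outlier spots were left out, log2 processed signals were averaged per probe, and the 75th percentile of an array's non-control probes was then subtracted. A probe was well above background when the software flagged over 50% of its spots as such. Probes were named by RefSeq accession (21102 probes, GRCr8 table) or by the file (14749), and 9746 had no gene name. The spot error is the pooled SD of the 100 repeat probes nearest in signal, combined over both arrays. It was divided by the square root of the probe's number of spots, which was 1 for every member probe. Counts use a rule of size, at least 2-fold. The named genes are all members, other transporters at least 1.5-fold different and the 2 with the largest ratio per compartment. Any other gene was named after its values were seen. The analysis used Python 3.11.15 and limma 3.58.1 (normexp offset 50, loess span 0.3), and its functions were tested on simulated data. The planned comparison of member proteins was not analysed here.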

Additional observations from a re-analysis of the deposited data

How the results depend on the processing

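Of the 10 member genes, 2 were at least 2-fold higher with normexp and 3 with 50 units added, an alternative chosen after seeing the data, against 5 as reported. Their median log2 ratio was 0.92 without scaling and 0.54 as the median over probes, against 0.71. Among the other amino acid transporters, 0 were at least 2-fold higher with normexp or with 50 units added, against 1. Those at least 2-fold lower numbered 0 with normexp, no scaling, quantile normalization, the deposited value table or 50 units added, and 6 with no filter on dim probes, against 1, and the list's median was 0.13 without scaling, against -0.08. Over all genes, 123 were at least 2-fold higher as reported, 61 with normexp, 195 without scaling, 1062 with no filter and 66 with 50 units added. At least 2-fold lower were 81 as reported, 31 with normexp, 47 without scaling, 1545 with no filter and 38 with 50 units added. Normexp and the added units shrink ratios of dim probes by construction. The cause of the other shifts was not tested. At least 2-fold lower members numbered 0 in every setting run. Signal over background limits Slc7a11, Slc1a4 and Slc7a5. No paired analysis was possible because each group has 1 array.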

Other observations

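Of 192 measured genes of the solute carrier (Slc) series, 5 were at least 2-fold higher (2.6%), and all 5 were members (Slc7a11, Slc1a4, Slc3a2, Slc7a5 and Slc7a1). Of the 158 Slc genes outside the member and amino acid lists, 0 were at least 2-fold higher, 0 at least 2-fold lower, and 3 were at least 1.5-fold different in each direction (1.9% each). Over all measured genes 0.942% and 0.62% passed 2-fold upward and downward, and 2.96% and 3.41% passed 1.5-fold. The counts of the 158 genes are near that background and set no contrast with the members. No test was possible with 1 array per group, and the members were chosen with these results known.

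The 3 higher Slc genes of that rest, named after their values were seen, were Slc9a5, a sodium-proton exchanger (log2 ratio 0.91, spot error 0.32), Slc26a6, an anion exchanger (0.79, spot error 0.56), and Slc25a33, a mitochondrial pyrimidine nucleotide carrier (0.65, spot error 0.16). With normexp they stood at 0.48, 0.17 and 0.50. Slc9a5 passed 2-fold without scaling between arrays (1.12). The 3 lower genes were Slc25a53 (-0.996, spot error 0.16), Slc6a8, the creatine carrier (-0.67, spot error 0.05), and Slc49a3 (-0.66, spot error 0.17). A probe with repeat spots has a smaller spot error, since it is that of their mean, so these errors are not all alike. Slc25a53 read 273 units on the water array and 158 on the Na2S3 array, and stood at -0.82 with normexp.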
